A study of Mus musculus with 6 samples.

Results

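The beta-catenin destruction complex and the TCF factors form the core of canonical Wnt signalling, and 10 of their genes were found by symbol among the 24956 rows of the expression table. They comprise the scaffolds Apc and Axin1, the kinases Gsk3b and Csnk1a1, the substrate Ctnnb1 (beta-catenin), the transcription factors Tcf7, Tcf7l1, Tcf7l2 and Lef1, and the Wnt target Sp5. RNA was measured by sequencing in mouse intestinal organoids, three-dimensional cultures of gut epithelium, of the Apc Min genotype. The low glutamine group held 3 libraries from organoids in low glutamine medium, and the control group held 3 libraries from organoids in control medium. Both groups carried the Min allele, a truncating mutation of Apc, and the table holds no group without it. The title places the comparison in work on alpha-ketoglutarate, Wnt signalling and differentiation in colorectal cancer. The labels give no glutamine concentration, no time in the medium, no gut segment and no age of the mice. The design text calls the 3 libraries of a group biological replicates, without saying whether they came from separate animals, so a p-value here reflects the variation among these libraries.

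In the destruction complex, APC and AXIN hold beta-catenin while casein kinase 1 alpha and GSK3 phosphorylate it, which marks it for ubiquitination and degradation. Beta-catenin that escapes enters the nucleus and binds TCF/LEF factors, which otherwise sit on Wnt target genes with corepressors. In the gut this pathway keeps crypt stem cells dividing, and loss of Apc function starts intestinal adenomas in mice. Beta-catenin is controlled largely as a protein, and the data here are RNA levels only.

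Low glutamine libraries held more RNA of Sp5, Lef1, Tcf7, Ctnnb1 and Apc and less of Tcf7l2 than control libraries. Levels are RPKM, read numbers scaled by transcript length and sequencing depth, as the authors deposited them. Of the 10 genes, 9 averaged 1 RPKM or more across the 6 libraries and were tested by limma on log2(RPKM + 1), with Benjamini-Hochberg adjustment over all 11082 genes that met this limit. At an adjusted p under 0.05, 5 of the 9 rose, 1 fell and 3 did not pass. Over all tested genes 66.4% passed, 36.1% as higher and 30.3% as lower, so the number of calls among the 9 lies near that background. Lef1 met the limit only through its low glutamine libraries, and Tcf7l1 did not meet it. The values of the groups did not overlap for 7 of the 9, 6 higher and 1 lower in low glutamine, where 70.2% of all tested genes did not overlap, 38.9% higher and 31.3% lower. Pearson's r across genes, which are not independent replicates, was 0.996 to 0.998 for libraries of 1 group and 0.922 to 0.927 for libraries of different groups. Estimated depth was 28.3 to 34 M (mega) reads in low glutamine and 24.4 to 35.4 M reads in control. The groups also differed in sex-linked RNA. Xist, expressed from a silenced X chromosome, measured 0.0237 to 0.0350 RPKM in low glutamine libraries and 83.1 to 90.5 RPKM in control libraries, and the Y-linked Eif2s3y measured 25.2 to 31.4 RPKM in low glutamine libraries and was at 0 in the 3 control libraries. This is the RNA pattern of male cells in low glutamine and of female cells in control, so the groups did not come from the same animal. The medium, the sex and the source animal cannot be told apart for any gene below. In these bulk libraries a change in the number of cells of a type and a change in RNA per cell cannot be told apart either.

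**Figure D1:**
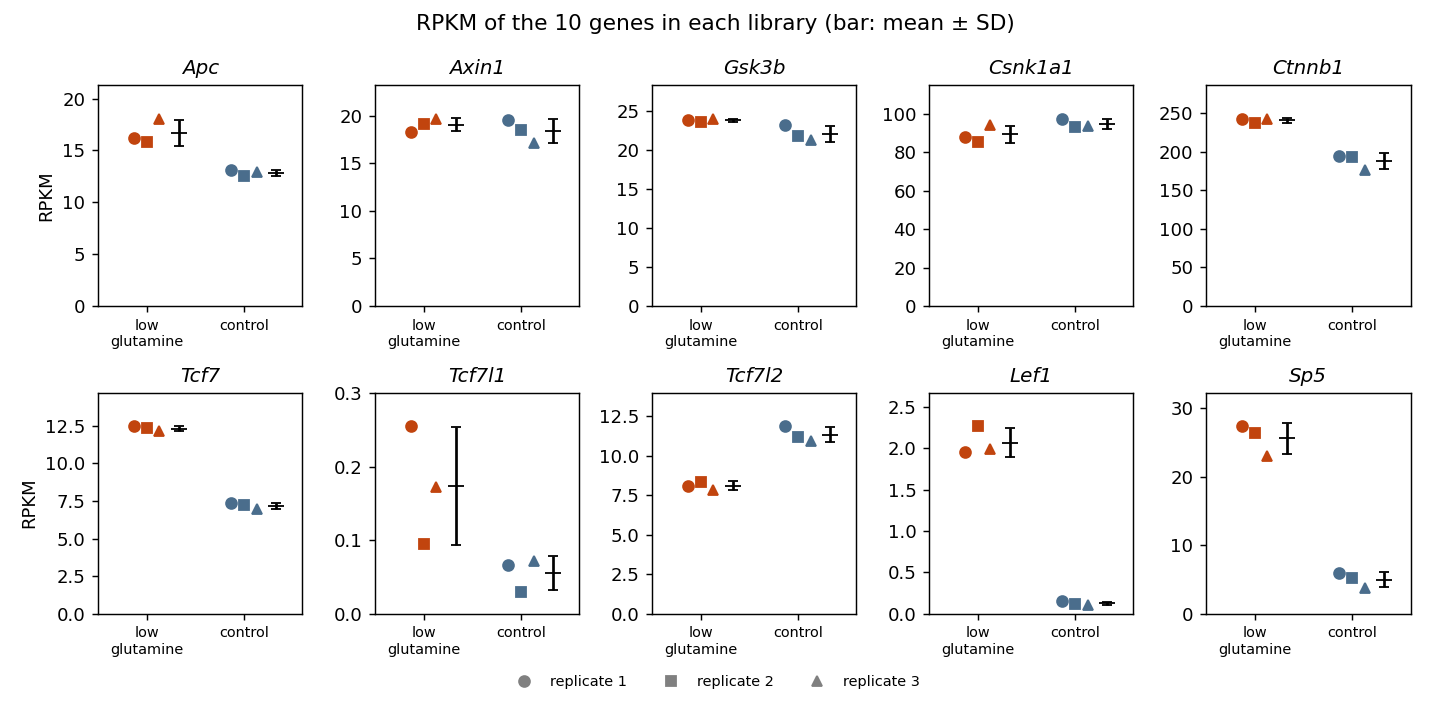
RPKM of each of the 10 genes in the 3 low glutamine libraries (left in each panel) and the 3 control libraries (right), with the mean and SD beside the points and the axes starting at 0. The groups do not overlap for Apc, Ctnnb1, Gsk3b, Tcf7, Tcf7l1, Lef1 and Sp5, higher in low glutamine, and for Tcf7l2, lower in low glutamine.

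The promoter sequences of the genes with the largest changes and of the gene that fell are shown because TCF/LEF factors bind a short motif near many Wnt targets. RefSeq windows on GRCm38.p6, which is mm10, were read for 7 of the 10 genes, over the 250 bases before each annotated start. The motif was CTTTGNN, where each N is A or T, and it was searched on both strands with overlapping matches counted apart. Capitals mark the matches.
Sp5 (chr2:70474673-70474922, plus strand): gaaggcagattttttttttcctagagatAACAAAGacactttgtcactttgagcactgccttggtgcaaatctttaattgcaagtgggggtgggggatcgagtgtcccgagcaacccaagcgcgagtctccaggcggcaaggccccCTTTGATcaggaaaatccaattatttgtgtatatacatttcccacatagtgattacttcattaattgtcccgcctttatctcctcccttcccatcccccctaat
Lef1, outermost start (chr3:131110047-131110296, plus strand): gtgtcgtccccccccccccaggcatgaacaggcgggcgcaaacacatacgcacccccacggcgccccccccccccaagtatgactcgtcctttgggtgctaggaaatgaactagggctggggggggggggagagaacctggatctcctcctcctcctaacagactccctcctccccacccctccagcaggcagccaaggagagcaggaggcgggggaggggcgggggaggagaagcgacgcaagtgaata
Lef1, internal start (chr3:131156044-131156293, plus strand): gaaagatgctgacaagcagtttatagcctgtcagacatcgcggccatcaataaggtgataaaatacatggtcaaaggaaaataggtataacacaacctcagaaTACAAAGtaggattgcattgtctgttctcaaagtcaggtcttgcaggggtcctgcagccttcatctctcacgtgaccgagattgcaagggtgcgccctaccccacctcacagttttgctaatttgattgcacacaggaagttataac
Tcf7l2, outermost start (chr19:55741560-55741809, plus strand): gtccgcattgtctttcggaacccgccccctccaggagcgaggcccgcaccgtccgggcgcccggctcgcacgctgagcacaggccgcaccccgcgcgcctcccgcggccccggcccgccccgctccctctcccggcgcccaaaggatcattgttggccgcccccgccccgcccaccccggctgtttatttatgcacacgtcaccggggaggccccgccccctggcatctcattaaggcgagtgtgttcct
Tcf7l2, internal start (chr19:55895071-55895320, plus strand): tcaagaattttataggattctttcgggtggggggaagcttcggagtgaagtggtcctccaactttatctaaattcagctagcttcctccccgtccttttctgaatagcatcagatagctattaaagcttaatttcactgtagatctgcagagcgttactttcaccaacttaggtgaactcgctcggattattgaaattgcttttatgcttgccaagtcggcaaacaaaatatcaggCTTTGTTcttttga
The Sp5 window held 2 matches, starting 222 bases before the annotated start on the minus strand and 104 bases before it on the plus strand. Of all 32851 RefSeq windows of this length, 14.8% held at least 1 match and 1.43% at least 2. In GENCODE M21 the Sp5 window overlapped no annotated transcript. The outermost windows of Lef1, which overlaps an exon of the antisense gene Gm43352, and of Tcf7l2, which overlaps no GENCODE M21 transcript, held none. The RefSeq coordinates of Tcf7l2 begin at 55741797, inside the end of that Tcf7l2 window. The internal start shown for each gene, which lies in an intron of its longer transcripts, had 1 match. It lay 147 bases before the start in Lef1 and 14 bases before it in Tcf7l2. Lef1 had 4 windows in all, and its other inner starts, not shown, held no match. Over the 13 windows of the 7 genes, 3 held a match and 10 did not, and the windows of Tcf7, Tcf7l1, Ctnnb1 and Gsk3b were among those without one. Axin1 had no window in the set used, and the windows of Apc and Csnk1a1 were left out of the search. These counts therefore do not cover Apc, Axin1 and Csnk1a1, and Apc was among the genes that rose. A match is a description of the letters and no evidence of binding.

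Among the scaffolds, Apc rose and Axin1 did not pass. Apc (chromosome 18, 34220297 to 34322190), the large scaffold truncated by the Min allele, measured 16.2, 15.8 and 18.1 RPKM in low glutamine libraries and 13.1, 12.6 and 12.9 RPKM in control libraries. Every low glutamine library lay above every control library, with replicate 3 the highest, and the RPKM values do not separate the Min from any other allele. The means were 16.7 ± 1.22 and 12.9 ± 0.294 RPKM (SD, n = 3 each), a log2 fold change of 0.35 ± 0.06 SE on the log2(RPKM + 1) scale (limma adjusted p = 0.000206). Axin1 (chromosome 17, 26131217 to 26195811), the scaffold that brings the kinases to beta-catenin, measured 18.3, 19.1 and 19.7 RPKM in low glutamine libraries and 19.6, 18.5 and 17.1 RPKM in control libraries. The groups overlapped, and the log2 fold change was 0.05 ± 0.06 (limma adjusted p = 0.499). Axin1 passed as higher when each library was rescaled to a common RPKM sum (0.17) and when this was done without the ribosomal RNA precursor Rn45s (0.20).

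The kinases showed small differences. Gsk3b (chromosome 16, 38089001 to 38246084), which phosphorylates the beta-catenin degron, measured 23.8, 23.5 and 24.0 RPKM in low glutamine libraries and 23.2, 21.7 and 21.2 RPKM in control libraries. The groups did not overlap, but they lay closer together than the control libraries lay to each other. The log2 fold change was 0.10 ± 0.05 (limma adjusted p = 0.0955), and Gsk3b passed as higher with quantile normalization (0.18) and with both rescalings to a common sum (0.23 and 0.25). Csnk1a1 (chromosome 18, 61554236 to 61590320), the priming kinase, measured 88.1, 85.2 and 94.3 RPKM in low glutamine libraries and 97.4, 92.8 and 93.6 RPKM in control libraries. These groups overlapped through low glutamine replicate 3. Its log2 fold change was -0.09 ± 0.06 (limma adjusted p = 0.211), and its direction depended on the scaling: it passed as lower with median-of-ratios scaling (-0.12) and without low glutamine replicate 3 (-0.13), and as higher with quantile normalization (0.11).

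Ctnnb1, the most abundant of the 10 RNAs in every library, was higher in low glutamine. The gene (chromosome 9, 120933400 to 120960507) encodes beta-catenin, which also links cadherins to the cytoskeleton at cell junctions. It measured 243, 237 and 243 RPKM in low glutamine libraries and 195, 193 and 177 RPKM in control libraries. The groups were apart by more than the spread within either, and control replicate 3 was the lowest. The means were 241 ± 3.36 and 188 ± 10.1 RPKM (SD, n = 3 each), with a log2 fold change of 0.35 ± 0.06 (limma adjusted p = 0.000255). Quantile normalization gave 0.63. Ulk4 shares 759 exon bases with Ctnnb1 on the opposite strand and averaged 0.293 RPKM in low glutamine and 0.0970 RPKM in control. Among all tested genes 35.4% had a larger absolute log2 fold change than Ctnnb1, and 36.0% a larger one than Apc, so both changes were of middle size for this comparison.

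The TCF/LEF factors moved in different directions. Tcf7, which encodes TCF1, a factor that is itself a Wnt target in human colon cancer cells, rose in low glutamine. It (chromosome 11, 52246527 to 52283383) measured 12.5, 12.3 and 12.2 RPKM in low glutamine libraries and 7.34, 7.26 and 6.97 RPKM in control libraries. The 3 values within each group were close, and the groups lay far apart. The means were 12.3 ± 0.153 and 7.19 ± 0.192 RPKM (SD, n = 3 each), with a log2 fold change of 0.70 ± 0.05 (limma adjusted p = 8.57e-08). Tcf7l2 (chromosome 19, 55741797 to 55933659), which encodes TCF4, the factor required for crypt stem cells, measured 8.11, 8.37 and 7.84 RPKM in low glutamine libraries and 11.9, 11.2 and 10.9 RPKM in control libraries. Every low glutamine library lay below every control library. The means were 8.11 ± 0.263 and 11.3 ± 0.481 RPKM, and Tcf7l2 fell by 0.44 ± 0.05 on the log2 scale (limma adjusted p = 1.39e-05).

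Lef1, a factor with little RNA in control organoids, was higher in low glutamine. The gene (chromosome 3, 131110297 to 131224357) measured 1.95, 2.26 and 1.99 RPKM in low glutamine libraries and 0.148, 0.115 and 0.111 RPKM in control libraries. The low values allow whole reads to be recovered, and these RPKM correspond to 245, 275 and 207 reads in low glutamine libraries and 17, 15 and 10 reads in control libraries. All 3 low glutamine libraries were far above the controls, and none of the controls was at 0. Exons of Gm43352 cover 1208 bases of Lef1 exons on the opposite strand in GENCODE M21, and since the strandedness of the counting is not stated, reads of the 2 genes cannot be told apart there. Lef1 met the limit of 1 RPKM only through low glutamine, so its place among the tested genes depends on the group where it is high. The ratio of the mean RPKM was 16.6, against a log2 fold change of 1.45 ± 0.07 on the log2(RPKM + 1) scale (limma adjusted p = 2.55e-09). This value depends on the pseudocount and was 3.27 with a pseudocount of 0.1 and 0.46 with a pseudocount of 5. Tcf7l1 (chromosome 6, 72626371 to 72789045), which encodes TCF3, mostly a repressor, had 25, 9 and 14 reads in low glutamine libraries and 6, 3 and 5 reads in control libraries. These reads correspond to 0.255, 0.0948 and 0.172 RPKM in low glutamine and 0.0667, 0.0294 and 0.0710 RPKM in control. The groups did not overlap, but each control value rests on few reads. Without the filter on low values Tcf7l1 had a log2 fold change of 0.15 ± 0.05 (limma adjusted p = 0.0523).

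Together these differences exchanged the order of the main factors in RPKM. RPKM is per length, so the factors were set beside each other within a library. The transcript lengths behind the values are not stated, and which factor stands higher rests on them. The recovered reads imply 2737 bases for Tcf7 and 4626 for Tcf7l2. In reads, Tcf7 stood below Tcf7l2 in both groups. It had 1162, 1112 and 941 reads in low glutamine libraries, against 1277, 1275 and 1025 for Tcf7l2. In control libraries it had 627, 703 and 466 reads, against 1713, 1834 and 1234. The exchange of order is thus seen per length and not in reads. A share of the summed RPKM of the 4 genes does not change when all values of a library are multiplied by the same number. Quantile normalization is not of this kind, and the shares were not computed with it. Tcf7 took 54.4% ± 0.768 of the sum in low glutamine libraries and 38.5% ± 0.614 in control libraries (SD, n = 3 each). Tcf7l2 took 35.8% ± 0.476 in low glutamine and 60.6% ± 0.462 in control. Lef1 took 9.12% ± 0.640 in low glutamine and 0.664% ± 0.0835 in control, and Tcf7l1 0.768% ± 0.354 and 0.298% ± 0.124. The ratio of Tcf7 to Tcf7l2 was 1.54, 1.47 and 1.55 in low glutamine libraries and 0.619, 0.648 and 0.638 in control libraries. Tcf7 was thus above Tcf7l2 in 3 of 3 low glutamine libraries and below it in 3 of 3 control libraries. The summed RPKM was 22.8, 23.1 and 22.2 in low glutamine and 19.4, 18.6 and 18.1 in control. For each share, the ratio and the sum the groups did not overlap, and the exact two-sided permutation test gave p = 0.1, the smallest that 3 libraries against 3 allow.

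**Figure D2:**
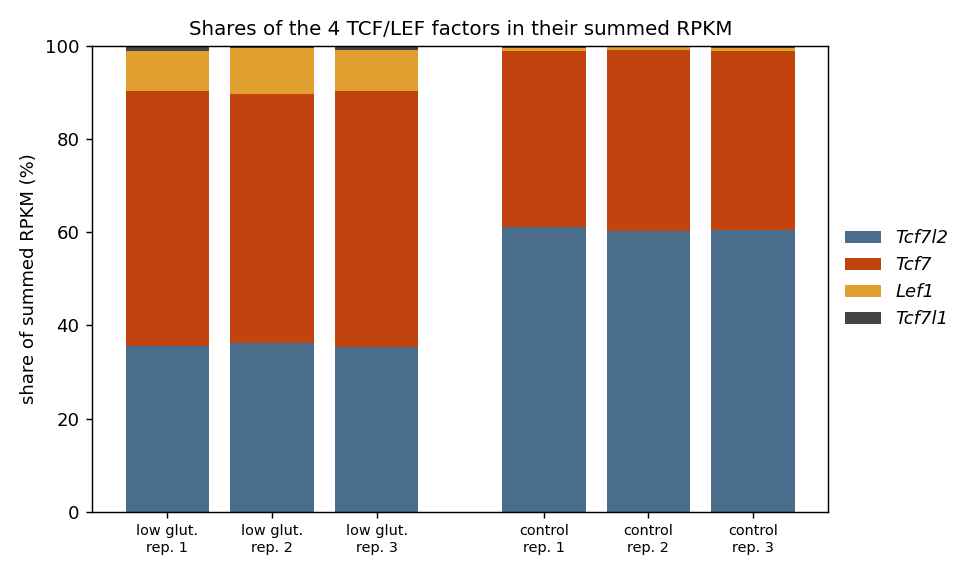
Share of Tcf7l2, Tcf7, Lef1 and Tcf7l1 in their summed RPKM, in percent, for each low glutamine library (left 3 bars) and each control library (right 3 bars). Tcf7l2 holds 35.8% of the sum on average in low glutamine and 60.6% in control, and the band of Lef1 is 9.12% and 0.664%.

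Sp5 had the largest log2 fold change of the 9 tested genes, and 0.704% of all tested genes had a higher one. Sp5 (chromosome 2, 70474923 to 70477726) encodes a zinc finger repressor of the SP family that is a direct Wnt target in mouse cells. It measured 27.3, 26.4 and 23.0 RPKM in low glutamine libraries and 5.88, 5.21 and 3.79 RPKM in control libraries, or 1950, 1824 and 1362 reads and 385, 387 and 194 reads. The lowest low glutamine library was far above the highest control library, and replicate 3 was the lowest of both groups. The means were 25.6 ± 2.29 and 4.96 ± 1.07 RPKM (SD, n = 3 each), with a log2 fold change of 2.17 ± 0.11 (limma adjusted p = 4.06e-09). Between same-numbered libraries, which are not known to belong together, the RPKM ratio was 4.65, 5.07 and 6.07. The promoter of Sp5 is the window shown above with 2 matches to the motif.

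The 3 tested genes whose values over the 6 libraries were most like those of Sp5 were Kif12, S100a6 and Fev. Likeness was the Euclidean distance between log2(RPKM + 1) values centred on each gene's mean, and it was 0.260, 0.269 and 0.269. With 3 libraries in each of 2 groups this measure is set mainly by the size of the group difference. Kif12, a kinesin, averaged 15.5 ± 1.24 RPKM in low glutamine and 3.17 ± 0.534 RPKM in control. S100a6, a calcium-binding protein, averaged 26.8 ± 1.71 RPKM in low glutamine and 6.12 ± 1.40 RPKM in control. Fev, a transcription factor of serotonin-producing cells, averaged 15.1 ± 0.642 RPKM in low glutamine and 2.73 ± 0.372 RPKM in control.

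Ordered by RPKM, the 10 genes ran in low glutamine as Ctnnb1, Csnk1a1, Sp5, Gsk3b, Axin1, Apc, Tcf7, Tcf7l2, Lef1 and Tcf7l1. In control the order was Ctnnb1, Csnk1a1, Gsk3b, Axin1, Apc, Tcf7l2, Tcf7, Sp5, Lef1 and Tcf7l1. Sp5 and Gsk3b overlapped in low glutamine, where their libraries spanned 23.0 to 27.3 and 23.5 to 24.0 RPKM. The other neighbours in both orders did not overlap.

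**Figure D3:**
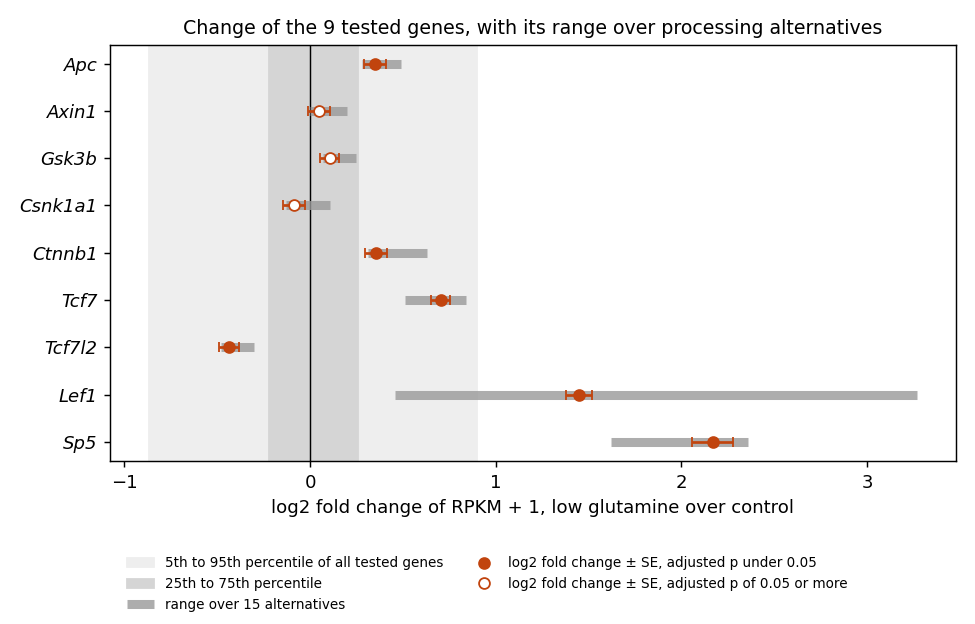
Log2 fold change of RPKM + 1, low glutamine over control, with its SE (points) for the 9 tested genes, beside its range over 15 processing alternatives (grey bars) and the middle of all tested genes (shaded). Sp5, Lef1 and Tcf7 lie to the right at 2.17, 1.45 and 0.70 and Tcf7l2 to the left at -0.44, while the bars of Csnk1a1 and Axin1 reach 0.

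Lef1 and Tcf7 are also RNAs of T cells, so markers of other cells were read beside them. The 11 leukocyte markers read were under 1 RPKM in every library, with a summed level of 0.657 to 0.871 RPKM in low glutamine and 0.190 to 0.293 RPKM in control. Cd3g, Cd4, Cd8b1 and Il7r were listed at 0 in all 6 libraries. Cd2, a T cell surface protein, measured 0.128, 0.106 and 0.186 RPKM in low glutamine libraries and was listed at 0 in the 3 control libraries. Ptprc, the pan-leukocyte marker, was at 0 in the 3 low glutamine libraries and averaged 0.00911 ± 0.0113 RPKM in control. The highest of the list was Lck, at 0.534 ± 0.0649 RPKM in low glutamine and 0.166 ± 0.0528 RPKM in control. Cd2, Ptprc and Lck were chosen after their values were seen. The 11 markers of fibroblasts, muscle and endothelium were likewise under 1 RPKM, summing to 0.409 to 0.582 RPKM in low glutamine and 0.475 to 0.588 RPKM in control. The 8 epithelial markers summed to 2494 to 2580 RPKM in low glutamine and 2065 to 2297 RPKM in control. Of the 8, 3 rose and 5 fell, where 36.1% of all tested genes rose and 30.3% fell. Epcam and Krt8, pan-epithelial genes, rose by 0.35 and 0.34 on the log2 scale, or by 0.65 and 0.57 with quantile normalization, and Krt18 rose by 1.29. Vil1 and Krt19 fell by 0.52 and 0.50, or by 0.23 and 0.21 with quantile normalization. The gut identity factors Cdx1 and Cdx2 fell by 0.58 and 0.56, with 0.36 for Cdx2 after quantile normalization. The tight junction gene Cldn7 fell by 0.26, a call lost with quantile normalization (0.026, adjusted p = 0.773) and with both rescalings to a common sum (-0.13 and -0.10). The part of these epithelial differences in the values of the 10 genes was not tested.

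Other genes of the degradation machinery moved both ways. Of 27 genes, 26 were tested. Of these 9 rose, 4 fell and 13 did not pass, where 36.1% of all tested genes rose and 30.3% fell. The median log2 fold change of the 26 was 0.10, against 0.03 over all tested genes. After rescaling to a common sum 15 rose and 1 fell, after the same without Rn45s 18 rose and 1 fell, and without low glutamine replicate 1 the number that fell was 2. Axin2, the Wnt-induced paralog of Axin1, measured 111 ± 2.51 RPKM in low glutamine and 48.8 ± 1.96 RPKM in control. Csnk1e, a casein kinase 1 that acts with Dishevelled, measured 9.79 ± 0.761 RPKM in low glutamine and 6.97 ± 0.175 RPKM in control, and rose by 0.44. Amer1, an X-linked membrane anchor of APC, measured 4.63 ± 0.387 RPKM in low glutamine and 3.20 ± 0.203 RPKM in control, and rose by 0.42, a value that was 0.23 with a pseudocount of 5. Tnks and Tnks2, the tankyrases that mark AXIN for destruction, rose by 0.41 and 0.39, and Btrc, the F-box protein that recognises phosphorylated beta-catenin, rose by 0.41. Gsk3a, the paralog of Gsk3b, measured 37.2 ± 3.12 RPKM in low glutamine and 44.8 ± 0.604 RPKM in control, and fell by 0.26. Dvl1, Csnk1g3 and Skp1a fell by 0.23, 0.18 and 0.15. Tnks, Tnks2, Btrc, Gsk3a, Dvl1, Csnk1g3 and Skp1a were chosen after their values were seen.

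Coactivators and corepressors of the TCF/LEF factors also moved both ways. Of 27 genes, 25 were tested, with a median log2 fold change of 0.19. Among the 25, 13 rose, 5 fell and 7 did not pass, against 36.1% higher and 30.3% lower over all tested genes. With rescaling without Rn45s 3 rather than 5 fell. Tnik, a kinase that binds TCF4, measured 5.30 ± 0.352 RPKM in low glutamine and 10.4 ± 0.250 RPKM in control, and fell by 0.86 (limma adjusted p = 4.51e-08). Aes, a short relative of the Groucho/TLE corepressors, measured 150 ± 9.60 RPKM in low glutamine and 227 ± 24.8 RPKM in control, and fell by 0.59, or by 0.31 with quantile normalization. Crebbp, a histone acetyltransferase and beta-catenin coactivator, measured 10.99 ± 1.35 RPKM in low glutamine and 7.28 ± 0.543 RPKM in control, and rose by 0.53. The corepressors Tle3 and Tle1 fell by 0.43 and 0.21 while their relative Tle4 rose by 0.20, and these 3 were chosen after their values were seen.

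Beta-catenin's partners at cell junctions differed among themselves. Of 10 genes 6 were tested, with a median log2 fold change of 0.04. Among the 6, 2 rose, 2 fell and 2 did not pass, against 36.1% higher and 30.3% lower over all tested genes. Cdh1, E-cadherin, measured 219 ± 18.5 RPKM in low glutamine and 165 ± 6.83 RPKM in control, and rose by 0.40, or by 0.69 with quantile normalization. Cdh17, the intestinal cadherin, measured 145 ± 18.2 RPKM in low glutamine and 255 ± 14.6 RPKM in control, and fell by 0.81, or by 0.54 with quantile normalization. Jup, plakoglobin, the closest relative of beta-catenin, measured 39.3 ± 0.585 RPKM in low glutamine and 48.3 ± 3.99 RPKM in control, and fell by 0.29, or by 0.16 after rescaling to a common sum and 0.15 after quantile normalization. With either rescaling, with quantile normalization and with no filter on low values, 4 of the junction genes passed as higher.

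The other tested SP factors had log2 fold changes of 0.15 to 0.49, against 2.17 for Sp5. Of 8 genes 4 were tested, with a median log2 fold change of 0.21. Among the 4, 3 rose, 0 fell and 1, Sp2, did not pass, against 36.1% higher and 30.3% lower over all tested genes. All 4 passed as higher with the replicate number as a block, without control replicate 1 and with both rescalings to a common sum. Sp4, a factor best known from neurons, measured 1.997 ± 0.0978 RPKM in low glutamine and 1.14 ± 0.0378 RPKM in control, and rose by 0.49, or by 0.19 to 0.76 over the alternatives. Sp3 rose by 0.28, or by 0.43 after rescaling to a common sum without Rn45s. Sp1, the ubiquitous activator, rose by 0.15 with an adjusted p of 0.0192, a call lost without control replicate 2 (adjusted p = 0.0553) or without low glutamine replicate 1 (adjusted p = 0.0510), and its value was 0.27 and 0.30 with the rescalings. Sp8, a relative of Sp5, averaged 0.0868 ± 0.00809 RPKM in low glutamine libraries and was listed at 0 in the 3 controls.

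**Figure D4:**
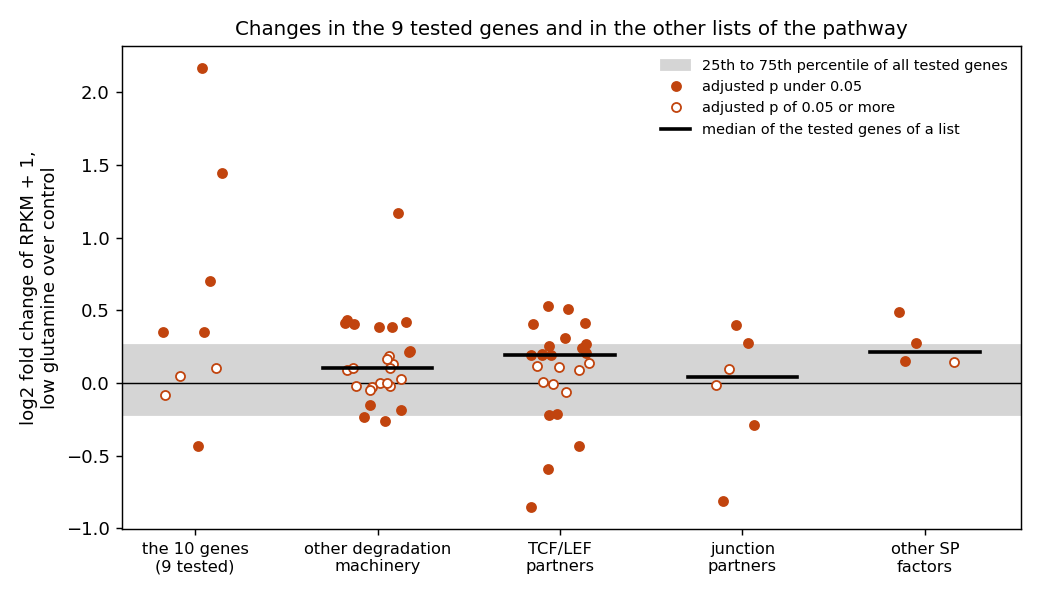
Log2 fold change of RPKM + 1, low glutamine over control, of each tested gene of the core set and of the 4 other lists, with filled points for an adjusted p under 0.05 and a line at the median of each other list. The medians lie between 0.04 and 0.21, inside the 25th to 75th percentile of all tested genes (-0.22 to 0.26), while Sp5, Lef1 and Axin2 stand highest.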

How the data were processed

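RNA-seq values of 6 libraries were used as the authors deposited them, in RPKM per gene symbol, 1 column per library. Per the submitters' processing notes, the tools were HISAT2 2.0.4, CASAVA 1.8 and Partek and the build was mm10; their roles are not stated. No source used here gives the annotation, counting rule, strandedness or transcript lengths. RPKM are not counts, so no count test was run. limma 3.58.1 in R 4.3.3, with a variance trend, tested the 11082 genes that averaged 1 RPKM or more, on log2(RPKM + 1). The test was two-sided at an adjusted p of 0.05 and left 13874 rows untested. It was tested on simulated data.

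Depth was estimated from values under 0.15 RPKM of single-exon genes, where the annotated length gives the worth of 1 read. Reads were then recovered for 5 of the 10 genes, as the smallest whole numbers that fit all 6 libraries within 0.02 reads. The other 5 gave none at that tolerance.

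The genes and the lists were chosen with earlier results of these data known. Named were the 10 genes, up to 3 genes per list with the largest absolute change, Axin2, Cdh1, markers over 1 RPKM, Xist, Eif2s3y and the 3 genes most like Sp5. A leukocyte marker of the list is not reported here. Genes chosen otherwise are said to be so or complete a count. Alternatives were other pseudocounts, no filter, 4 scalings, no variance trend, the replicate number as a block and each library left out. The correlation of deviations from group means was 0.15, 0.25 and 0.57 for the pairs of libraries numbered 1, 2 and 3. Each was over the limit of 0.1 set for pairing. Low glutamine library 1 with control library 2 (0.36) and low glutamine library 2 with control library 1 (0.20) were over it too. The rule therefore cannot show that same-numbered libraries belong together, and the main test was unpaired. Names and coordinates are from RefSeq on GRCm38.p6 (mm10). Plots and tables used Python 3.11.15, pandas 2.3.3, numpy 2.4.6 and matplotlib 3.10.9.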

Additional observations from a re-analysis of the deposited data

How the results depend on the processing

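Sp5, Lef1, Tcf7, Ctnnb1 and Apc passed as higher and Tcf7l2 as lower under all 15 alternatives. All of these but the one with no filter kept the limit that Lef1 met only through its low glutamine libraries. Csnk1a1 reversed with quantile normalization (0.11), as did Cldn7 (0.026). The cause was not tested. Of the 10 genes, 2 passed as lower with median-of-ratios scaling, and 1 to 2 with each library left out, and with rescaling to a common sum, with or without Rn45s, and with quantile normalization 7 passed as higher. The median over all tested genes was 0.03 and became 0.14 after rescaling to a common sum and 0.17 when Rn45s was left out. The calls over all genes were then 5689 higher and 2543 lower, and 6040 higher and 2385 lower without Rn45s, against 4001 and 3360, so that 69.1% and 71.7% of calls were higher, against 54.4%. Among the other degradation genes the counts were 15 higher and 1 lower, and 18 and 1 without Rn45s, and 2 to 5 were lower with each library left out. Of the TCF partners 3 were lower after rescaling without Rn45s. Of the junction genes 4 were higher with no filter, quantile normalization and both rescalings, and of the other SP genes 5 were higher with no filter, where more genes are tested. With the replicate block 5 of the 10 genes were higher and 1 lower, as without it, and of all genes 4192 were higher and 3544 lower. It made the higher calls 12 against 9 among the other degradation genes, 14 against 13 among the TCF partners and 4 against 3 among the other SP genes, through Sp2, and changed no lower count of these lists. Shares of the TCF/LEF factors kept their direction with each library left out, by 15.6 to 16.4 percentage points for Tcf7, -25.1 to -24.6 for Tcf7l2, 8.10 to 8.73 for Lef1 and 0.295 to 0.649 for Tcf7l1. Counting error limits Tcf7l1 and the control level of Lef1.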

Other observations

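Several genes of the lists stood too low for the test but did not overlap between the groups, and they are given as values, chosen after these were seen. The placental cadherin gene Cdh3 averaged 0.432 ± 0.0509 RPKM in low glutamine and 0.0286 ± 0.0187 RPKM in control (SD, n = 3 each). The neural cadherin gene Cdh2 averaged 0.913 ± 0.0406 RPKM in low glutamine and 0.106 ± 0.0186 RPKM in control, while E-cadherin was the abundant cadherin of this kind in both groups. The Groucho family corepressor Tle2 averaged 1.27 ± 0.0376 RPKM in low glutamine and 0.591 ± 0.114 RPKM in control, and Sp9 averaged 0.115 ± 0.0262 RPKM in low glutamine and 0.0114 ± 0.0197 RPKM in control. The markers of fibroblasts, muscle and endothelium went both ways. Pecam1 was higher in low glutamine, at 0.362 ± 0.0949 RPKM against 0.168 ± 0.0251 RPKM in control. Pdgfrb was lower, at 0.0739 ± 0.00586 RPKM in low glutamine and 0.271 ± 0.0274 RPKM in control. None of these genes averaged 1 RPKM over the 6 libraries. With no filter on low values 4 of the junction genes passed as higher, against 2 with it, and 5 of the other SP genes, against 3.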
